A study of Mus musculus with 6 samples.

Results

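The Dlk1-Dio3 domain is a cluster of imprinted genes on mouse chromosome 12, and 6 of its genes were followed here through the testis transcriptome, namely Meg3, Rian, Mirg, Dlk1, Rtl1 and Dio3. They were taken by symbol from the 34144 gene rows, and all 6 had a row. Of these, 5 passed the filter on low counts and were tested among 21002 genes, and Dio3 did not pass. Meg3 was selected on its measured difference in gene counts between the genotypes, so that difference is given as a description with no test. The other 5 were chosen for their place in the domain. RNA came from the seminiferous tubules left after removal of the testis capsule in 6 mice labelled C57Bl/6J at 3 months of age, 3 wild type (WT) and 3 with the Nsun7-/- genotype, each library from 1 mouse. Nsun7 is a putative RNA methyltransferase that the series title names as an RNA-binding protein acting on transcripts of elongated spermatids. The labels name no promoter, Cre or clone and do not describe the Nsun7 allele. Nsun7 transcripts stood at 55.7% of the wild-type level in the knockout libraries (36.5 ± 0.762 against 20.3 ± 4.19 CPM, library-scaled counts in the usual unit, SD, n = 3).

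In the Dlk1-Dio3 domain the protein-coding genes Dlk1, Rtl1 and Dio3 are expressed from the paternally inherited chromosome, and the noncoding RNAs Meg3, Rian and Mirg from the maternally inherited one. The choice is set by an intergenic region between Dlk1 and Meg3 that is methylated in the male germ line. The maternal RNAs are thought to arise largely as one long transcript that begins at the Meg3 promoter and is cut into spliced noncoding RNAs, small nucleolar RNAs and microRNAs. The gene tables hold none of the small RNAs: GENCODE M21 annotates 90 microRNA or small nucleolar RNA genes between the start of Dlk1 and the end of Dio3, and 0 of them had a row.

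The windows below are shown because the maternal noncoding RNAs had unlike values in these libraries. They are the start of Meg3, where the shared transcript is thought to begin, and the annotated starts of Rian and Mirg. Each holds 250 bases before and 50 after a RefSeq transcript start on the plus strand of GRCm38.p6, at chr12:109540746-109541045 for Meg3, chr12:109603695-109603994 for Rian and chr12:109734731-109735030 for Mirg. The authors' build is mm39, so these coordinates belong to the sequence table alone. Capitals mark matches on either strand to the cAMP response element (TGACGTCA), the TATA box (TATAAA) and the CCAAT box (CCAAT).
Meg3: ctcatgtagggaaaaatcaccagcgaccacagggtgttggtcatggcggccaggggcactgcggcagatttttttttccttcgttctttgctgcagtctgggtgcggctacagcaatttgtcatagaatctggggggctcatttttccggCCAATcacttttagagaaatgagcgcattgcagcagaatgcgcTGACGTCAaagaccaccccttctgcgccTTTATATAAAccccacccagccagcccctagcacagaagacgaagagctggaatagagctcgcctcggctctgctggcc
Rian: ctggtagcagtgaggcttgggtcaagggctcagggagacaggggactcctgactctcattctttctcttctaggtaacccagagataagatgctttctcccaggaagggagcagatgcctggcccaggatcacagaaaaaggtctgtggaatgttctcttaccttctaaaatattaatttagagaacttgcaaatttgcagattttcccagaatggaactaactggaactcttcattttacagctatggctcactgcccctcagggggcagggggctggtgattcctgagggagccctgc
Mirg: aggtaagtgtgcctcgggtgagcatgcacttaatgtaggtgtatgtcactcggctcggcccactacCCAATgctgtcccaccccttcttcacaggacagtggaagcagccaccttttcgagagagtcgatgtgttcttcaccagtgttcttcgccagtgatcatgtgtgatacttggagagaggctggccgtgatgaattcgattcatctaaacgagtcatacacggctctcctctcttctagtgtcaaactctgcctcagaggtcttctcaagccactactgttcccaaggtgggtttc
RefSeq gives Meg3 a second start, whose window at chr12:109545148-109545447 held 0 matches and 1 CG dinucleotide and is not printed. The Meg3 window shown held all 3 motifs: a CCAAT match starting 100 bases before the start site, a TGACGTCA match starting 57 bases before it, and overlapping TATAAA matches, 1 on each strand, starting 29 and 25 bases before it. The Mirg window held 1 CCAAT match, starting 184 bases before its start site, and the Rian window held 0 matches. Of 32851 RefSeq windows of this length, 1.79% held TGACGTCA, 13.6% TATAAA and 37.4% CCAAT. The Meg3 window shown held 13 CG dinucleotides, the Mirg window 10 and the Rian window 0, against a median of 7 over all windows. These matches describe the letters of the windows and not the binding of a factor.

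The libraries held between 23480448 and 28558865 estimated counts. The noncoding RNA Rmrp took between 1.55% and 4.85% of the wild-type counts and between 0.985% and 1.76% of the knockout counts, which moves TPM, the length-corrected abundance the authors deposited, of every other gene. Genotypes were therefore compared in CPM scaled by the trimmed mean of M-values. Markers of elongating spermatids summed to between 6608 and 9991 CPM over the 6 libraries. The epididymal gene Crisp1 stood at 29.4 CPM in wild-type mouse 1 and at 0.162 CPM or less in the other 5 libraries, and Adam7 of the same list of 6 epididymal genes stood at 2.54 CPM there and at 0.0375 CPM or less elsewhere. Of the other 4 genes of the list, Lcn5, Lcn8 and Spint4 had 0 counts in every library and Cst11 was at 0.112 CPM or less. The first principal component placed wild-type mouse 1 (-38.3) and knockout mouse 3 (49.2) at its ends. At a threshold of 0.05 on the adjusted p (Benjamini-Hochberg), edgeR's quasi-likelihood test called 119 tested genes (0.567%), with 0.333% lower and 0.233% higher in Nsun7-/- mice, and 67 passed without wild-type mouse 1, 78 when mouse 2 or mouse 3 of that genotype was left out.

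Meg3, the first gene of the maternal transcript and a long noncoding RNA studied as a growth suppressor, was lower in all knockout testes than in any wild-type testis. It had 117, 79 and 123 estimated counts for wild-type mice 1 to 3 in turn, against 54, 35 and 45 for knockout mice 1 to 3. After scaling these were 5.30, 3.06 and 4.74 CPM in wild type and 2.18, 1.31 and 1.46 CPM in the knockout. Wild-type mouse 2 was the lowest of its group and knockout mouse 1 the highest of its own, and the groups did not overlap. The means were 4.37 ± 1.16 and 1.65 ± 0.467 CPM (SD, n = 3), so that the knockout stood at 37.8% of the wild-type level. The log2 fold change was -1.41 (SE 0.26). In bulk tissue such as this, fewer cells of a type and less RNA per cell cannot be told apart. These are the values for which Meg3 was chosen. Depth limits them: the exact Poisson 95% interval, which covers counting error only, ran from 62.5 to 98.5 counts in wild-type mouse 2 and from 40.6 to 70.5 in knockout mouse 1, so the closest pair of libraries had intervals that met. Leaving out 1 library at a time gave log2 fold changes of Meg3 between -1.66 and -1.26, the latter without wild-type mouse 1, the library with Crisp1. The choice of Meg3 rests on the full set: it would not have passed the threshold without wild-type mouse 1 or 3 (log2 fold changes -1.26 and -1.34), nor without knockout mouse 2 or 3 (-1.27 and -1.33). In deposited TPM the groups did not overlap either, with 2.79, 3.01 and 5.36 in wild type and 2.02, 1.58 and 1.99 in the knockout. With limma on log2 TPM, however, Meg3 would not have passed the threshold. Its log2 fold changes there were -0.68 and -0.91 with pseudocounts of 1 and 0.1.

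Rian, the next maternal RNA and the host of a large array of small nucleolar RNAs, had lower values in the knockout but did not pass the test over all genes. Its levels were 2.99, 3.45 and 2.89 CPM for wild-type mice 1 to 3 in turn, against 2.18, 2.02 and 1.59 CPM for knockout mice 1 to 3. In CPM no knockout library reached a wild-type one, with means of 3.11 ± 0.299 and 1.93 ± 0.31 CPM (SD, n = 3). The log2 fold change was -0.69 (SE 0.22, 95% interval -1.16 to -0.22), with an unadjusted p of 0.00705 and an adjusted p of 0.33 in edgeR's quasi-likelihood test. In deposited TPM the groups of Rian overlapped, with 1.52, 2.47 and 2.63 in wild type and 1.65, 1.93 and 1.42 in the knockout, and limma on log2 TPM gave -0.25 and -0.36 with pseudocounts of 1 and 0.1. Over all tested genes 14.3% did not overlap in CPM between the genotypes, 6.95% being lower and 7.38% higher in the knockout. An unadjusted p under 0.05 was reached by 8.39% of them, and by 3.92% in the direction of Rian.

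Mirg, the most distal of the 3 maternal RNAs and the host of a microRNA cluster, overlapped between the genotypes. It held 14.8, 14 and 13.5 CPM for wild-type mice 1 to 3 in turn, against 15.9, 11.3 and 12.3 CPM for knockout mice 1 to 3. Knockout mouse 1 was the highest of all 6 libraries and knockout mouse 2 the lowest. The means were 14.1 ± 0.645 and 13.2 ± 2.42 CPM (SD, n = 3), and the log2 fold change was -0.10 (SE 0.15, edgeR adjusted p = 0.859). Its 95% interval ran from -0.42 to 0.23, so small changes in either direction lie within it. On the log2 scale of deposited TPM plus 1 the median over all genes stood at 0.25, and Mirg took a positive value (0.20).

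**Figure D1:**
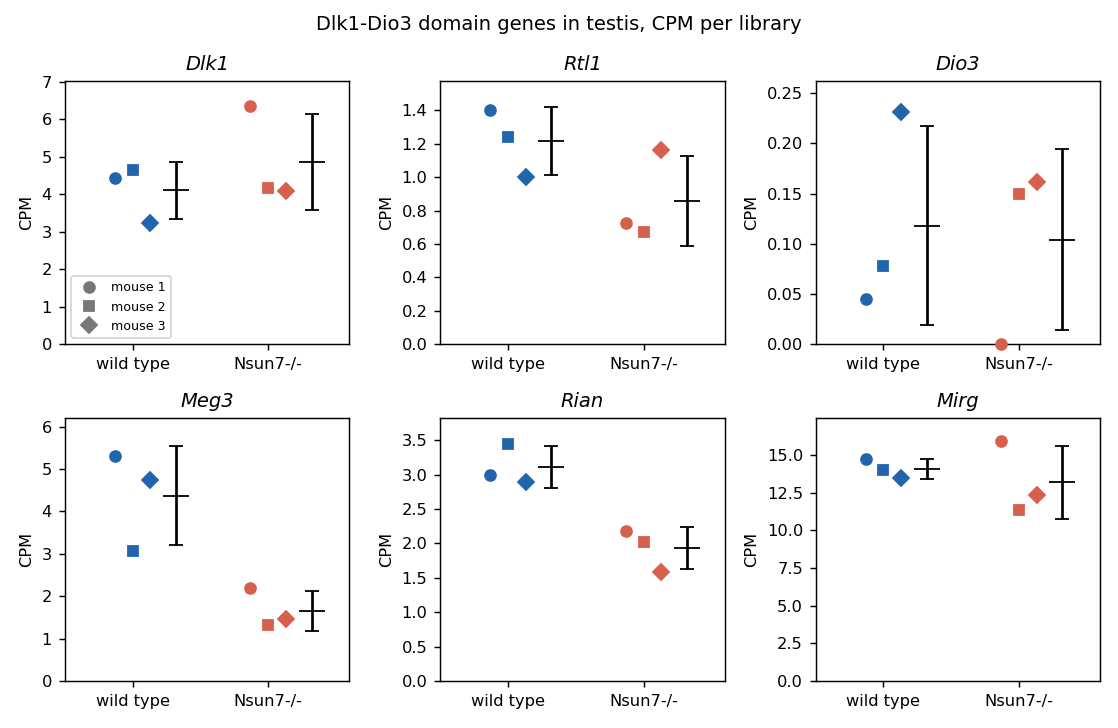
CPM (linear axes from 0) of the 6 domain genes in each library, with a symbol for each mouse number and the mean ± SD beside each group of 3 wild-type (blue) and 3 Nsun7-/- (red) mice. Meg3 and Rian did not overlap between the genotypes, while Dlk1, Rtl1, Dio3 and Mirg did.

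Of the paternally expressed genes, Dlk1 overlapped between the genotypes in CPM and did not overlap in deposited TPM. It encodes a transmembrane protein related to the Notch ligands that is known for holding back differentiation of precursor cells. The levels were 4.44, 4.65 and 3.24 CPM for wild-type mice 1 to 3 in turn, against 6.35, 4.16 and 4.08 CPM for knockout mice 1 to 3. Knockout mouse 1 stood above the other 5 libraries, and the other 2 knockout mice lay within the wild-type range. The means were 4.11 ± 0.764 and 4.86 ± 1.29 CPM (SD, n = 3), and the fitted log2 fold change was 0.24 (SE 0.22, 95% interval -0.23 to 0.71, edgeR adjusted p = 0.748). Without knockout mouse 1 the value was -0.0045. In deposited TPM the values were 2.53, 3.82 and 2.78 in wild type and 5.20, 4.10 and 4.87 in the knockout, all knockout mice being the higher. With pseudocounts of 1 and 0.1, limma on log2 TPM gave 0.51 and 0.63 (limma adjusted p = 0.406 and 0.407). The median over all genes stood at 0.25 and 0.30 on these scales. The summed level of 8 Leydig cell markers, from the testosterone-producing cells between the tubules, was also highest in knockout mouse 1, at 4958 CPM. It stood at 2900, 2336 and 1762 CPM in wild-type mice 1, 2 and 3, and at 2953 and 2222 CPM in knockout mice 2 and 3. Most of this sum was Insl3, at 3268 CPM in knockout mouse 1. Sums of Sertoli cell (823 CPM), interstitial fibroblast (441 CPM), macrophage (279 CPM) and adrenal cortex (16.8 CPM) markers were also highest in knockout mouse 1. Those of the other marker lists were not. Of the 8 markers 4 had an unadjusted p under 0.05 in edgeR's test, as did 8.39% of all tested genes. DESeq2, which called 203 genes in all, called 3 of the markers (Hsd3b1, Hsd17b3 and Lhcgr). By edgeR's test 2 markers rose in the knockout, against 0.233% of all tested genes, and 0 fell. Those that rose were Hsd3b1 (log2 fold change 1.17, edgeR adjusted p = 0.00345) and Hsd17b3 (0.80, adjusted p = 0.0182), both enzymes of steroid synthesis. Both were highest in knockout mouse 2 (69.6 and 35.2 CPM, against 67.6 and 34.0 CPM in knockout mouse 1). The call of Hsd17b3 was lost without wild-type mouse 1 (log2 fold change 0.68, edgeR adjusted p = 0.143) or 2 (0.84, adjusted p = 0.0853), without knockout mouse 2 (0.75, adjusted p = 0.0928), and with limma on log2 TPM (1.18 and 1.22, adjusted p = 0.0589 and 0.0734). The part of these cells in the level of Dlk1 was not tested.

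Rtl1, a gene derived from a retrotransposon and needed in the placenta, was present at few counts. It had 31, 32 and 26 counts for wild-type mice 1 to 3 in turn, against 18, 18 and 36 for knockout mice 1 to 3. Knockout mice 1 and 2 were below all wild-type mice in CPM, and knockout mouse 3 lay within their range. The means were 1.22 ± 0.202 and 0.856 ± 0.269 CPM (SD, n = 3), and the fitted log2 fold change was -0.49 (SE 0.32, 95% interval -1.18 to 0.21, edgeR adjusted p = 0.672). In RefSeq the Rtl1 gene runs over parts of Meg3 and Rian on the other strand. No source says that strand was used in counting, and without it the reads of such a stretch cannot be told apart.

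Dio3, the deiodinase that inactivates thyroid hormone, was barely detected. It had 1, 2 and 6 counts in the wild-type libraries and 0, 4 and 5 in the knockout libraries, 9 in each genotype. The 0 of knockout mouse 1 allows up to 3 counts, or 0.121 CPM. A difference in Dio3 was not detectable at this depth.

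Apart from Meg3, 0 of the 4 tested members passed edgeR's test, 1, Rian, reached an unadjusted p under 0.05, and 0 were called by DESeq2. On deposited TPM, which corrects for length, Mirg was the highest in every library, at 17.5 ± 1.96 TPM in wild type against 20.3 ± 2.38 TPM in Nsun7-/- mice (SD, n = 3). Rtl1 (0.139 to 0.285 TPM) and Dio3 (0 to 0.192 TPM) were the lowest, and their ranges met. Between these the order of the means differed by genotype. In wild type Meg3 (3.72 ± 1.42 TPM), Dlk1 (3.04 ± 0.687 TPM) and Rian (2.21 ± 0.6 TPM) followed each other with overlapping ranges, from 1.52 TPM for Rian to 5.36 TPM for Meg3. In the knockout Dlk1 (4.72 ± 0.568 TPM) stood clear of Meg3 (1.87 ± 0.245 TPM) and Rian (1.66 ± 0.258 TPM), and the latter pair overlapped. Over 30603 gene rows with a TPM above 0, the mean of Mirg lay at the 77.3 percentile, Dlk1 at 56.8, Meg3 at 53.0, Rian at 48.7, Rtl1 at 23 and Dio3 at 15.7.

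Ratios between members within a library do not depend on how the libraries are scaled. The ratio of Meg3 to Mirg counts was 0.359, 0.219 and 0.351 for wild-type mice 1 to 3 in turn, against 0.137, 0.116 and 0.118 for knockout mice 1 to 3. Every knockout library was below every wild-type library. The ratio of Rian to Mirg counts was 0.202, 0.247 and 0.214 in wild type and 0.137, 0.179 and 0.129 in the knockout, again with no overlap in counts, although the TPM ratios of this pair did overlap. Meg3 to Dlk1 went from 1.11 ± 0.41 to 0.339 ± 0.0214 (SD, n = 3), with no overlap. Meg3 to Rian overlapped, at 1.43 ± 0.477 and 0.856 ± 0.184. Mirg to Dlk1 overlapped in counts (3.01 to 4.17 in wild type, 2.51 to 3.02 in the knockout) and not in TPM (4.43 to 7.09 and 4.21 to 4.36). Within a library, then, Meg3 stood lower against Mirg and Dlk1 in every knockout mouse. The ratios hold the values that chose Meg3 and carry no test.

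**Figure D2:**
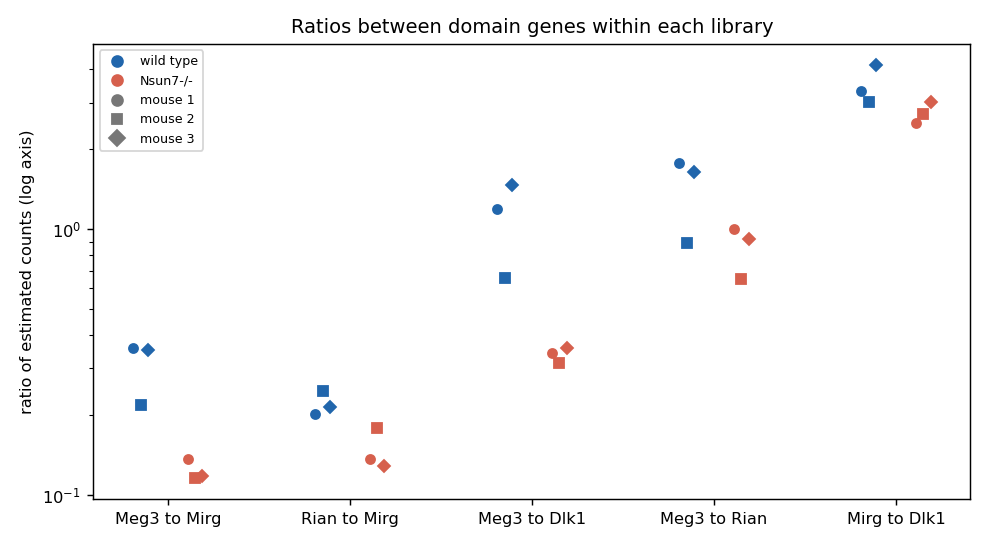
Ratio of estimated counts between pairs of domain genes within each library (log axis), wild type in blue and Nsun7-/- in red, with a symbol for each mouse number. The ratio of Meg3 to Mirg lay between 0.219 and 0.359 in wild type and between 0.116 and 0.137 in the knockout, while Meg3 to Rian and Mirg to Dlk1 overlapped in these counts.

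The Meg3 counts were spread over many transcripts. For Meg3, 11 transcripts could be matched to GENCODE M21, 10 of them with a count, and together they held 55.2% of the Meg3 counts of the gene table. The matched transcript with the highest summed count, of 1378 bases, held 24, 14.5 and 12.7 estimated counts for wild-type mice 1 to 3 in turn, against 5.61, 7.73 and 6.57 for knockout mice 1 to 3. It was the highest matched transcript in wild-type mouse 1 and knockout mouse 2 only, and unmatched transcripts were not ranked. The next, of 14548 bases, held 22.3, 5.41 and 14.1 in wild type and 8.01, 3.27 and 2.30 in the knockout. A transcript of 1818 bases had 27.3 counts in wild-type mouse 2, 3.66 in wild-type mouse 1 and 0 in the other 4 libraries. All matched transcripts summed to 75.3, 58.9 and 52.0 counts in wild type and 26.2, 15.7 and 22.0 in the knockout, with no overlap. The unmatched rest was 41.7, 20.1 and 71.0 counts in wild type and 27.8, 19.3 and 23 in the knockout, with overlap. How the signal divided among transcripts does not follow from the total, and it was compared by the share of the transcript of 1378 bases. This share was 16.4% ± 5.35 in wild type against 15.7% ± 5.93 in Nsun7-/- mice (SD, n = 3; two-sided exact permutation test, p = 1, where 3 against 3 libraries cannot go below 0.1). With so few counts for each transcript, a shift between isoforms was not detectable at this depth.

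For Rian 20 transcripts were matched, 14 with a count, and they held 28.7% of its gene counts, so its isoforms are not described. For Mirg 12 matched transcripts, 11 with a count, held 100% of the counts. The largest, of 898 bases, had 165, 149 and 121 estimated counts in wild type and 164, 101 and 172 in the knockout, which overlapped. Dlk1 counts lay mostly on a transcript of 1703 bases, with 91.7, 74.5 and 74.4 in wild type and 141, 81.1 and 82.4 in the knockout. A Dlk1 transcript of 1129 bases had 3.81, 14.3 and 8.26 counts in wild type and 13.7, 21.6 and 41.3 in the knockout, with knockout mouse 3 the highest and knockout mouse 1 below wild-type mouse 2. Rtl1 was counted on 1 transcript of 6358 bases.

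Between Dlk1 and Dio3 the gene tables held 9 more rows, 4 of them tested. These rows were taken by position after the values of the members had been seen. GENCODE M21 classes all 9 as long noncoding RNAs, and no function is given for them here. 4930511J24Rik, annotated on the strand of Meg3 and after Mirg, fell from 2.94, 3.37 and 3.58 CPM in wild type to 0.606, 0.825 and 0.971 CPM in the knockout, with no overlap (log2 fold change -2.03, SE 0.25, edgeR adjusted p = 0.000932). B830012L14Rik, on the same strand between Rian and Mirg, had 12, 14 and 15 counts in wild type and 3, 4 and 7 in the knockout (log2 fold change -1.69, SE 0.46, edgeR adjusted p = 0.2). The groups of this row did not overlap, but the counts were few. Gm40576, on the other strand, stood at -0.83 (SE 0.43, edgeR adjusted p = 0.631), also without overlap, and Gm34719 at 0.17 (SE 0.36, adjusted p = 0.901). Of the 9 tested rows of the domain, members included, 5 were lower in the knockout without overlap, against 6.95% of all tested genes, and nothing is read from that count since Meg3 is in it. On the plus strand the tested rows ran in the order Dlk1, Meg3, Rian, B830012L14Rik, Mirg and 4930511J24Rik. Of these, Dlk1 and Mirg overlapped between the genotypes in CPM. Nothing is read from this order either, since Meg3 is in it and rows were added after values were seen. The parental origin of B830012L14Rik and 4930511J24Rik was not tested.

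Outside the domain the nearest genes did not pass edgeR's test, and DESeq2 called 1 of them. Among the 10 tested protein-coding genes before Dlk1 and the 10 after Dio3, 0 rose and 0 fell by edgeR's test, 6 had an unadjusted p under 0.05 (8.39% of all tested genes did), 7 did not overlap between the genotypes (14.3% of all) and the median log2 fold change was -0.07, against 0.01 over all tested genes. The neighbour with the smallest p was the zinc finger gene Zfp839, at 31.9 CPM in wild type and 21.4 CPM in the knockout (log2 fold change -0.58, SE 0.12, edgeR adjusted p = 0.0547). It was the neighbour that DESeq2 called, among 203 genes in all. Begain, next to Dlk1 and imprinted in some tissues, was at -0.09 (edgeR adjusted p = 0.889). On the whole of chromosome 12, leaving out Meg3, 15 of 741 tested genes were called, 4930511J24Rik among them. That is 2.02%, against 0.567% of all tested genes. The closest called rows beyond the domain were 4930465M20Rik, 18 tested genes before it (log2 fold change -9.45, edgeR adjusted p = 1.1e-05), and Gm36757, 39 tested genes after it (2.12, adjusted p = 0.00441).

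**Figure D3:**
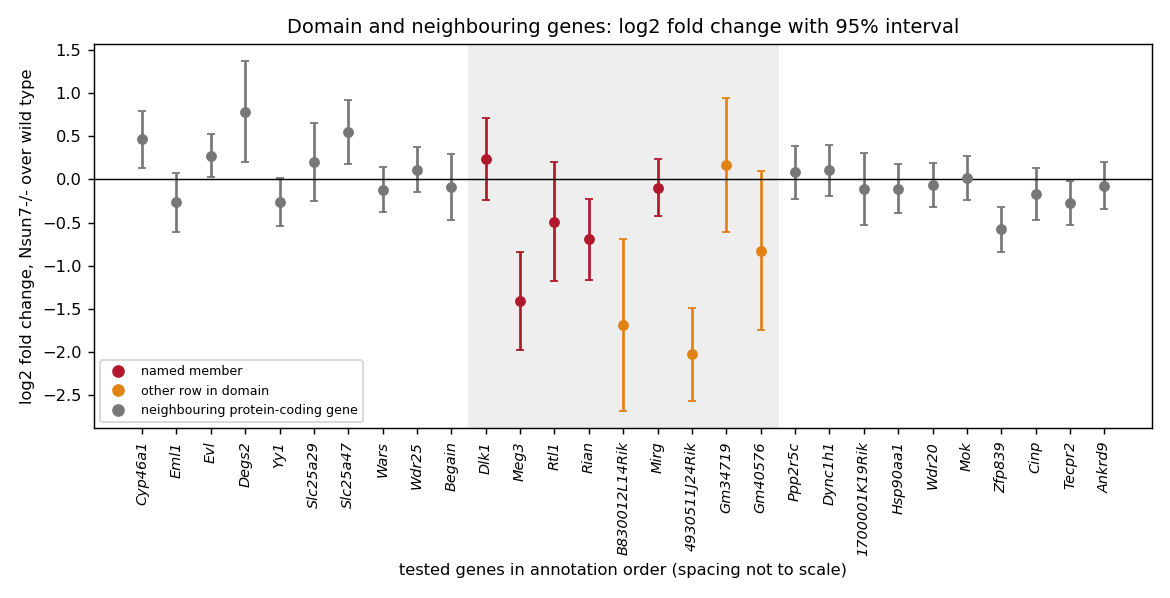
Log2 fold change of Nsun7-/- over wild type with its 95% interval from the edgeR fit, for the 9 tested rows of the domain (shaded) and 10 tested protein-coding genes on each side, in annotation order with spacing not to scale. Meg3, B830012L14Rik and 4930511J24Rik lie below -1, and no neighbouring gene does.

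Lists of genes that share the biology of the members held 0 genes called by edgeR and 2 called by DESeq2, Asb4 and Rbpj. Over all tested genes edgeR called 0.567%, and 8.39% had an unadjusted p under 0.05. DESeq2, run without the low-count filter, called 203 genes in all. Of 50 tested imprinted genes from other domains 0 rose and 0 fell (edgeR; 5 with an unadjusted p under 0.05, 1 called by DESeq2, median log2 fold change -0.01). The smallest p belonged to Asb4, an ankyrin repeat gene of the Peg10 cluster (log2 fold change -0.62, SE 0.16, edgeR adjusted p = 0.167), which DESeq2 called, and to the splicing factor gene Zrsr1 (-0.55, SE 0.20, adjusted p = 0.467). Of 22 tested genes that set or keep imprints 0 passed (2 with an unadjusted p under 0.05, 0 by DESeq2, median 0.04). In this list Ctcfl, the testis relative of the insulator protein CTCF, was at -0.51 (edgeR adjusted p = 0.467). Zfp57, a zinc finger protein that protects imprinted methylation, was at 0.70 (edgeR adjusted p = 0.516), with overlap between the genotypes.

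Around Dlk1, 0 of 27 tested Notch pathway genes passed edgeR's test, against 0.567% of all tested genes. An unadjusted p under 0.05 was reached by 5 of them, against 8.39% of all (1 called by DESeq2, median -0.09). Rbpj, the DNA-binding factor of Notch signalling, was at 0.61 (SE 0.15, edgeR adjusted p = 0.111) and was the gene DESeq2 called, and the ligand gene Jag2 was at -0.42 (edgeR adjusted p = 0.3). Around Dio3, 0 of 15 tested genes of thyroid hormone action passed (0 with an unadjusted p under 0.05, 0 by DESeq2, median 0.09), with the selenocysteine elongation factor gene Eefsec at -0.26 (edgeR adjusted p = 0.631) and the Mediator subunit gene Med1 at 0.20 (adjusted p = 0.655). Around Rtl1, 0 of 9 tested genes of the same retrotransposon-derived family passed (1 with an unadjusted p under 0.05, 0 by DESeq2, median -0.17), with Rtl6 at -0.29 (edgeR adjusted p = 0.572) and Rtl8b at -0.33 (adjusted p = 0.637). Dio3os, a noncoding RNA that starts beside Dio3 on the other strand, had 3, 0 and 0 counts in wild type and 8, 4 and 5 in the knockout, under the filter on low counts.

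Cell type markers gave the following levels beside Meg3, and their part in its difference was not tested. For interstitial fibroblasts, Sertoli cells and endothelial cells the summed marker levels of the genotypes overlapped. They ran from 363 to 418 CPM in wild type and 322 to 441 CPM in the knockout for fibroblasts, 734 to 787 and 663 to 823 CPM for Sertoli cells, and 96.3 to 127 and 99.5 to 127 CPM for endothelial cells. Macrophage markers also overlapped, at 172 to 216 and 181 to 279 CPM. Peritubular myoid markers did not overlap, at 643 to 683 CPM in wild type and 497 to 619 CPM in the knockout, nor did spermatocyte markers, at 4245 to 5115 and 3073 to 4011 CPM, or spermatogonial markers, at 198 to 220 and 184 to 197 CPM. Members of these lists differed. Over all tested genes 14.3% did not overlap in CPM, 6.95% being lower and 7.38% higher in the knockout. Of the myoid genes Myh11 (-0.21), Tagln (-0.35) and Des (-0.39) were lower in the knockout without overlap. Acta2 (-0.28), Cnn1 (-0.13) and Actg2 (-0.0029) overlapped. The spermatocyte sum was mostly the testis histone gene H1f6 (3752 CPM in wild type, log2 fold change -0.44). Piwil1 (-0.21) and Spo11 (-0.25) were also lower without overlap. Sycp1 was at -0.18, and Sycp3 and Hormad1 stood at -0.0012 and -0.0040, all with overlap. Of the spermatogonial genes Stra8 (-0.46) and Dmrt1 (-0.29) were lower in the knockout without overlap. Gfra1 (0.52) and Kit (0.042) were higher without overlap, and Zbtb16 (0.072) and Sall4 (-0.20) overlapped. The myoid, spermatocyte and spermatogonial lists were broken down by gene after their values were seen. Markers of adrenal cortex were low, at 4.93 to 7.75 and 8.38 to 16.8 CPM, without overlap of the sums, and Mc2r was at 0 in every library. That sum was mostly Mrap (means of 4.51 CPM in wild type and 9.08 CPM in the knockout). Every tested adrenal marker, Mrap included, overlapped between the genotypes. No gene of these lists passed edgeR's test, nor did any of round or elongating spermatids, whose sums overlapped.

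The genes whose levels followed Meg3 most closely over the 6 libraries were Cux2 (Pearson r = 0.994), Sgcb (0.993), Myo3b (0.990), Taf7l (0.988) and Zfp777 (0.987), of 17902 genes with a mean of at least 1 CPM. This likeness is a description, since the libraries share the genotype difference that chose Meg3. Rian stood at r = 0.817 (rank 530), 4930511J24Rik at 0.833 (rank 453), Rtl1 at 0.59, Mirg at 0.59 and Dlk1 at -0.24. After subtraction of each genotype's mean the closest were Ppp1r18os (r = 0.998), Myo3b (0.986), Rpl36a (0.986), Nxph1 (0.985) and Spred2 (0.985). Within the genotypes Mirg was at 0.704, Dlk1 at 0.315, Rian at -0.034, Rtl1 at -0.10 and 4930511J24Rik at -0.65. The values of Rian and 4930511J24Rik over all 6 libraries contain the genotype difference that chose Meg3. With so few mice of each genotype, the values within the genotypes cannot tell whether a row follows Meg3.

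**Figure D4:**
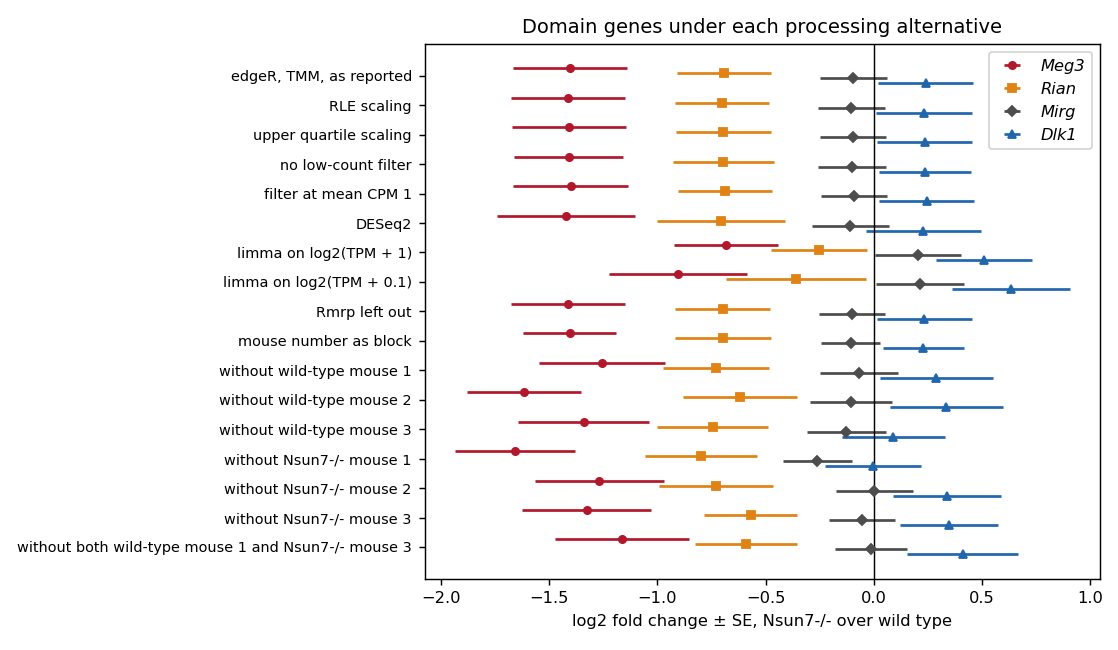
Log2 fold change ± SE of Nsun7-/- over wild type for Meg3, Rian, Mirg and Dlk1 under each processing alternative. Meg3 stayed between -1.66 and -0.68 and Rian between -0.80 and -0.25, all below 0, while Mirg (-0.26 to 0.21) and Dlk1 (-0.0045 to 0.63) took both signs.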

How the data were processed

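Total RNA of 6 testes was depleted of ribosomal and globin RNA and sequenced, per the labels' protocols. The submitters' processing notes name kallisto 0.50.1 and mm39. Which annotation release, strand setting and transcript-to-gene rule were used is not given in the sources used here. Estimated counts and TPM for genes and for transcripts were deposited by the authors, per the file headers; the transcript tables also give lengths. The test of gene counts used edgeR 4.0.16 (R 4.3.3), with TMM scaling, filterByExpr by genotype (minimum count 10, minimum total 15) and the robust quasi-likelihood test of genotype alone, with Benjamini-Hochberg adjustment over 21002 genes and a threshold of 0.05. CPM relate counts to the TMM-scaled library size. SEs are the log2 fold change over the root of F. The biological coefficient of variation was 14.9%. On simulated knockout against wild-type counts for 20685 genes 82% of the genes given a log2 change of 1 were called. Of those given a change of 0.585, 26% were called, and 5.66% of all calls were false. The simulation drew its spread from the fitted trend. DESeq2 1.42.0 and limma 3.58.1 served as alternatives. Transcripts and gene order came from GENCODE M21 (GRCm38), and windows from RefSeq (5 of 6 members matched). Columns of other samples numbered 0.

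The members and gene lists were chosen with earlier results of these data known. Named genes were the members, the list genes past the threshold or otherwise the 2 of smallest p, the called among 10 neighbours on each side, and the 5 genes most like Meg3 by either measure, leaving out predicted or clone names. For marker lists sums are given. Mouse numbers recur in both genotypes but name different mice.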

Additional observations from a re-analysis of the deposited data

How the results depend on the processing

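The number of genes called was 119, and it was 180 without the low-count filter, 203 with DESeq2, 52 and 48 on log2 TPM (pseudocounts 1 and 0.1; 33 higher and 19 lower, and 30 higher and 18 lower, against 49 and 70), and between 67 and 166 when a library was left out. On log2 TPM, where the median of all genes stood at 0.25 and 0.30, Meg3 was at -0.68 and -0.91 and Mirg turned to 0.20 and 0.21. Leaving out a library gave -1.66 to -1.26 for Meg3, -0.26 to 0.0018 for Mirg and -0.0045 to 0.35 for Dlk1, and a difference in the transcript share of -3.91 to 1.94 percentage points, so the direction of that share rests on single libraries. Rian was below 0 in all 16 alternatives (adjusted p 0.141 to 0.795) and Rtl1 in all 14 that tested it. With wild-type mouse 1 and knockout mouse 3 left out together, chosen after seeing the data, Meg3 was at -1.16, Dlk1 at 0.41 and 91 genes were called. 4930511J24Rik was called in all alternatives but log2 TPM (adjusted p = 0.105 and 0.12, limma). The cause of these shifts was not tested. With the mouse number as a replicate block 331 genes were called; Meg3 was at -1.41 and Rian at -0.70 (edgeR adjusted p = 0.141). Libraries of the same number correlated at 0.177, -0.0048 and 0.199 in their deviations from the group means. Libraries of unlike number correlated at between -0.235 and 0.0565. Whether the mouse number marks a shared batch was not tested. Dio3 was fitted only without a filter (log2 fold change -0.17, SE 0.97) and with DESeq2. Depth limits Dio3, Rtl1 and single transcripts.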
